A study of Homo sapiens with 6 samples.

Results

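A set of 16 of 62696 gene rows was counted in every library of one group of C4-2 prostate cancer cells and stood at or next to 0 in the other group. A gene was taken when it had at least 5 reads in each of the 3 libraries of one group, at least 30 reads over that group and at most 1 read over the other group. Genes spanning over 500 kb and genes of the MAGE, UGT2B, HOX and ZNF name groups or with names ending in -DT were to be left out, and 0 genes that met the counts were lost that way. The set held 9 silenced genes, present in the vector libraries and lost in the CDK12 knockout libraries, and 7 switched-on genes with the opposite pattern. The genes were thus chosen by these same counts, so their difference between the groups is a description and carries no test.

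The C4-2 line comes from human prostate cancer that grows without androgen (castration-resistant) and is of epithelial type, and the study examined what CDK12 deficiency does to it. The vector group (VEC) has the genotype label WT, and the knockout group (CDK12KO) was made by CRISPR-Cas9 editing of CDK12, a kinase that phosphorylates RNA polymerase II and supports transcription elongation. Both groups were grown untreated in RPMI1640 with fetal bovine serum, and total RNA of 3 libraries per group was sequenced. The labels do not say whether a group came from 1 clone or whether its libraries were separate cultures, so the spread between libraries may be technical.

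The libraries held 16617644 to 21590817 reads counted in genes. Knockout library 2 stood apart: its log2 CPM (reads relative to the size of the library, corrected for library composition by TMM factors) correlated with the other libraries across genes at r = 0.916 to 0.95, against 0.977 to 0.990 among the other 5. Results that rest on it are given with and without it. CDK12 itself held 60.2, 48.0 and 57.1 CPM in vector libraries 1 to 3, against 60.8, 56.9 and 56.5 in knockout libraries 1 to 3. A count over the whole gene does not show whether its reading frame was cut, so it does not check the labels. Of the prostate luminal markers, KLK3 (prostate-specific antigen) held 4307 to 5847 CPM and KRT8, a luminal keratin, 543 to 1100 CPM over the 6 libraries. The 8 basal markers summed to 7.79 to 11.7 CPM, with TP63 at 0 and most reads in DST and ITGB4. Of the 14 fibroblast markers, which are given with the matrix genes below, DCN and FAP were at 0 in all libraries.

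As background, the silenced genes have several roles. FBN2 (fibrillin-2, a microfibril protein of elastic fibres), COL1A2 (the alpha-2 chain of type I collagen) and VCAN (versican, a large proteoglycan) belong to the extracellular matrix. MYL7 (the atrial light chain of myosin), MYBPC3 (cardiac myosin-binding protein C) and CKM (muscle creatine kinase) belong to heart and skeletal muscle. PEG10 is a paternally expressed imprinted gene derived from a retrotransposon, and RNU6-660P is a pseudogene of the U6 small nuclear RNA. HBB, beta-globin, is the adult haemoglobin chain of red blood cells.

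The switched-on genes have other roles. CYP4F22 is a cytochrome P450 that hydroxylates very long fatty acids for the skin barrier, and FABP5 is a fatty acid-binding protein. LMO1 is a LIM-only transcription cofactor, SHFL is an interferon-induced antiviral protein and PXDNL is a peroxidasin-like protein. C8orf34-AS1 and ENSG00000285971 are long noncoding RNAs.

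Promoter sequences are shown first, since genes lost or gained together can be compared at their starts. RefSeq windows on GRCh38.p14, from 250 bases before to 50 bases after the start, were found for 8 of the 16 genes, namely FBN2, VCAN, MYL7, MYBPC3, CKM, CYP4F22, SHFL and LMO1. The other 8 genes, HBB, RNU6-660P, COL1A2, PEG10, ENSG00000285971, PXDNL, C8orf34-AS1 and FABP5, are named only. Each window was searched on both strands for 4 motifs. The GC box was searched as GGGCGG. The letters TATAAA stood for the TATA box in this search. An AP-1 site was any match to TGANTCA, where N is any base. For the E-box the sequence searched was CACGTG. Windows are shown for FBN2 and CKM, a CpG-dense and a CpG-poor window among silenced genes, and for CYP4F22 and LMO1 among switched-on genes. They run 5′ to 3′ on the strand of the gene and capitals mark the motifs, read on either strand.
FBN2 (chr5:128538196-128538495, minus strand): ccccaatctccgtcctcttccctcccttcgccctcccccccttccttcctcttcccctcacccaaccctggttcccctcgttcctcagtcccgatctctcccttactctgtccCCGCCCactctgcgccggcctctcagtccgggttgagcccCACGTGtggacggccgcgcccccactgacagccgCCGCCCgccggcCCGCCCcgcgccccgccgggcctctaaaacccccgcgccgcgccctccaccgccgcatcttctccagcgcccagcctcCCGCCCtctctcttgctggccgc
CKM (chr19:45322826-45323125, minus strand): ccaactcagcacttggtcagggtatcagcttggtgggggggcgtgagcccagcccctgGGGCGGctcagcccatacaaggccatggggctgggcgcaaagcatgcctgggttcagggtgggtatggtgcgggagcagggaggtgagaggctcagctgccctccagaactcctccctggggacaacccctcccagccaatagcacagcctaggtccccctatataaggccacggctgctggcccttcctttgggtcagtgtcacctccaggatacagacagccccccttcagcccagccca
CYP4F22 (chr19:15508275-15508574, plus strand): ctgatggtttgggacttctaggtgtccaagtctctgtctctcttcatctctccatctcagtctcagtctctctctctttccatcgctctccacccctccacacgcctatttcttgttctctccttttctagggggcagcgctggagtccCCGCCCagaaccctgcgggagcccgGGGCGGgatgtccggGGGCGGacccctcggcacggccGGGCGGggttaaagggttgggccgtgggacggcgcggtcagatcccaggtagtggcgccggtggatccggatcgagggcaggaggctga
LMO1 (chr11:8268738-8269037, minus strand): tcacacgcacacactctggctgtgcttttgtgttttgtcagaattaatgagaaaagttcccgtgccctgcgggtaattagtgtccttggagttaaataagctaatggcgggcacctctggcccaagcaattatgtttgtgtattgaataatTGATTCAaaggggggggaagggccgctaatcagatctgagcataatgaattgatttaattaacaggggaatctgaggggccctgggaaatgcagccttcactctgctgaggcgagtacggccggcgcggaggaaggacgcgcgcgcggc

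The FBN2 window was dense in CpG, with 72.7% GC, 30 CpG dinucleotides and an observed/expected CpG ratio of 1.00. It held 4 GC boxes and 1 E-box. This RefSeq start lies inside the longer span that GENCODE 29 gives FBN2, so it is 1 of several annotated starts. The CKM window had 64.3% GC but 5 CpG dinucleotides, a ratio of 0.161, and 1 GC box. The windows of the other muscle genes were also poor in CpG, with ratios of 0.125 for MYL7 and 0.155 for MYBPC3 and none of the 4 motifs in either. VCAN lay between, at 0.549 with 1 GC box.

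The windows of the switched-on genes had ratios of 0.691 for CYP4F22, 0.811 for LMO1 and 0.892 for SHFL. CYP4F22 and SHFL each held 4 GC boxes and LMO1 held 1 AP-1 site. Over all 35116 promoters of the table the median ratio was 0.579, 45.0% held a GC box, 11.5% a TATA box, 7.71% an AP-1 site and 7.26% an E-box. The 3 muscle genes therefore sat below that median, and FBN2 and the 3 switched-on genes above it. These are letters in a window, and no factor was measured.

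**Figure D1:**
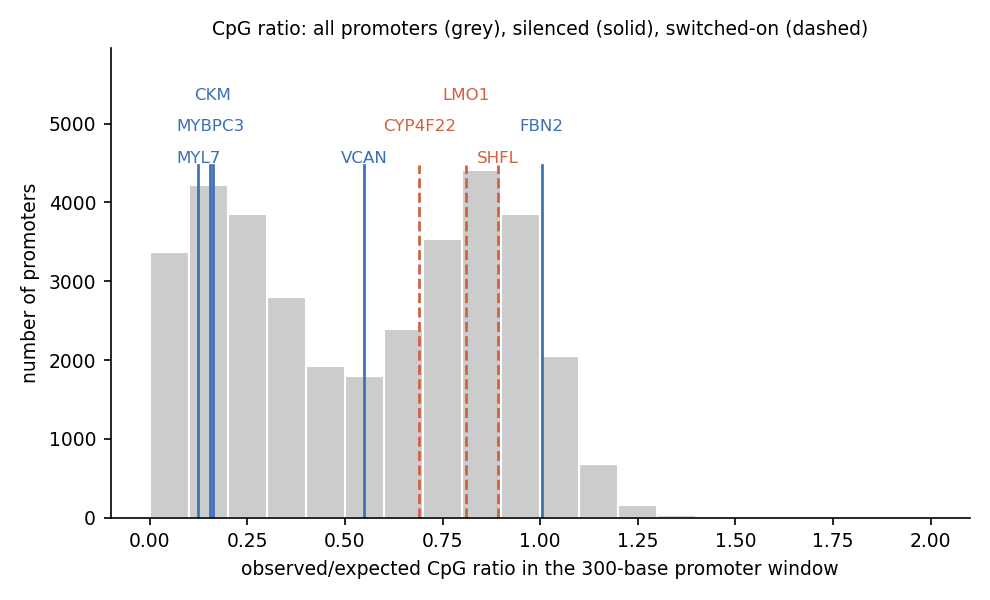
The x axis is the observed/expected CpG ratio of a 300-base promoter window and the y axis the number of promoters, for all 35116 promoters in grey bars of equal width. Solid lines mark silenced genes and dashed lines switched-on genes: MYL7, MYBPC3 and CKM lie at 0.125 to 0.161 and FBN2 at 1.00.

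In the vector libraries 1, 2 and 3 in turn, FBN2 (ENSG00000138829, chr5:128257909-128659185) held 20, 19 and 19 reads, and it held 0 in each knockout library. Its level was 1.04 ± 0.020 CPM (SD, n = 3), the smallest relative spread of the set. Counting error at about 20 reads is larger than this SD, so the small spread does not show a steadier gene. Against a floor of 3 reads over the knockout group, FBN2 was at least 19.6-fold higher in the vector libraries.

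COL1A2 (chr7:94394561-94431232) held 22, 20 and 10 vector reads and 0 in each knockout library. Its level of 0.932 ± 0.331 CPM (SD, n = 3) was at least 17.6-fold above the same floor. VCAN (chr5:83471465-83582303) held 10, 12 and 18 vector reads and 0 knockout reads, at least 13.5-fold. These 3 matrix genes were low in the vector libraries too: per kilobase of exon they stood at 0.079 CPM for FBN2, 0.084 for COL1A2 and 0.049 for VCAN.

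COL1A2 and PEG10 were the only pair of the set with the same direction within 1 Mb of each other, 225 kb apart on chromosome 7. PEG10 (chr7:94656325-94669695) held 18, 13 and 14 vector reads and 0 knockout reads, 0.806 ± 0.102 CPM (SD, n = 3) and at least 15.2-fold. SGCE, an imprinted neighbour that shares 248 bases with PEG10, held 1, 6 and 4 vector reads and 0 in each knockout library. PPP1R9A, on the other side of PEG10, held 2, 1 and 4 vector reads and 0 in each knockout library. Both are below the count filter of the test and, like the other untested neighbours named below, were singled out after their values were seen.

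CASD1, a sialic acid O-acetyltransferase gene, lies between COL1A2 and PEG10 and did not pass the test. It held 300, 201 and 278 vector reads against 268, 115 and 219 knockout reads, which is -0.42 ± 0.25 as a log2 fold change with its SE (adjusted p in edgeR 0.314). Without knockout library 2 the value was -0.23 ± 0.15 (edgeR adjusted p = 0.329). RPS3AP25, a ribosomal protein pseudogene between PEG10 and PPP1R9A, held 7, 7 and 9 vector reads and 6, 47 and 6 knockout reads, the higher total resting on knockout library 2. So COL1A2, PEG10 and 2 weak neighbours were at 0 in the knockout libraries, while CASD1 and RPS3AP25, in the same stretch, were still counted in each. Whether the RPS3AP25 reads came from this pseudogene or from its parent gene was not tested.

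The muscle genes differed between vector libraries. MYL7 (chr7:44138864-44141332) held 25, 74 and 92 vector reads, MYBPC3 (chr11:47331397-47352702) 6, 23 and 15, and CKM (chr19:45306414-45322977) 7, 16 and 16, each with 0 in all knockout libraries. Vector library 1 was the lowest for all 3 and also for VCAN, a matrix gene, while for COL1A2 and PEG10 it had the most reads. Against the floor they were at least 64.6-fold, 14.9-fold and 13.2-fold higher in the vector libraries.

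HBB (chr11:5225464-5229395) had the most reads and the widest spread of the set. It held 2709, 2726 and 5 vector reads, or 138.6, 152.6 and 0.275 CPM, and 0 in each knockout library. The third vector library thus held the minimum that the rule asks for, and the mean over the group, 97.2 ± 84.2 CPM (SD, n = 3), describes only 2 of the 3 libraries. Its neighbours HBD and HBE1, the delta and epsilon globins, were at 0 in all 6 libraries. An erythroid list of 11 genes, added after these values were seen, gave 1, 5 and 3 vector reads and 5, 3 and 2 knockout reads when HBB was left out, and 8 of the 11 genes were at 0 over each group. The source of the HBB reads was not tested.

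RNU6-660P (chr5:16941843-16941951) held 345, 410 and 257 vector reads and 0 in each knockout library, which is at least 342-fold above the floor. It is annotated as 109 bases long. The other 1275 RNU6 rows together held 450, 542 and 459 vector reads and 445, 355 and 436 knockout reads. No single one of them exceeded 103 reads in a library. Many U6 copies are alike, and reads that mapped to several places are not in these counts. MYO10, a myosin gene whose body lies 5.57 kb from RNU6-660P, held 894, 683 and 794 vector reads and 590, 308 and 453 knockout reads. Its log2 fold change was -0.85 ± 0.17 (SE), with an edgeR adjusted p of 0.0877, and it fell by 0.74 ± 0.11 with an adjusted p of 9.91e-05 when knockout library 2 was left out of edgeR.

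**Figure D2:**
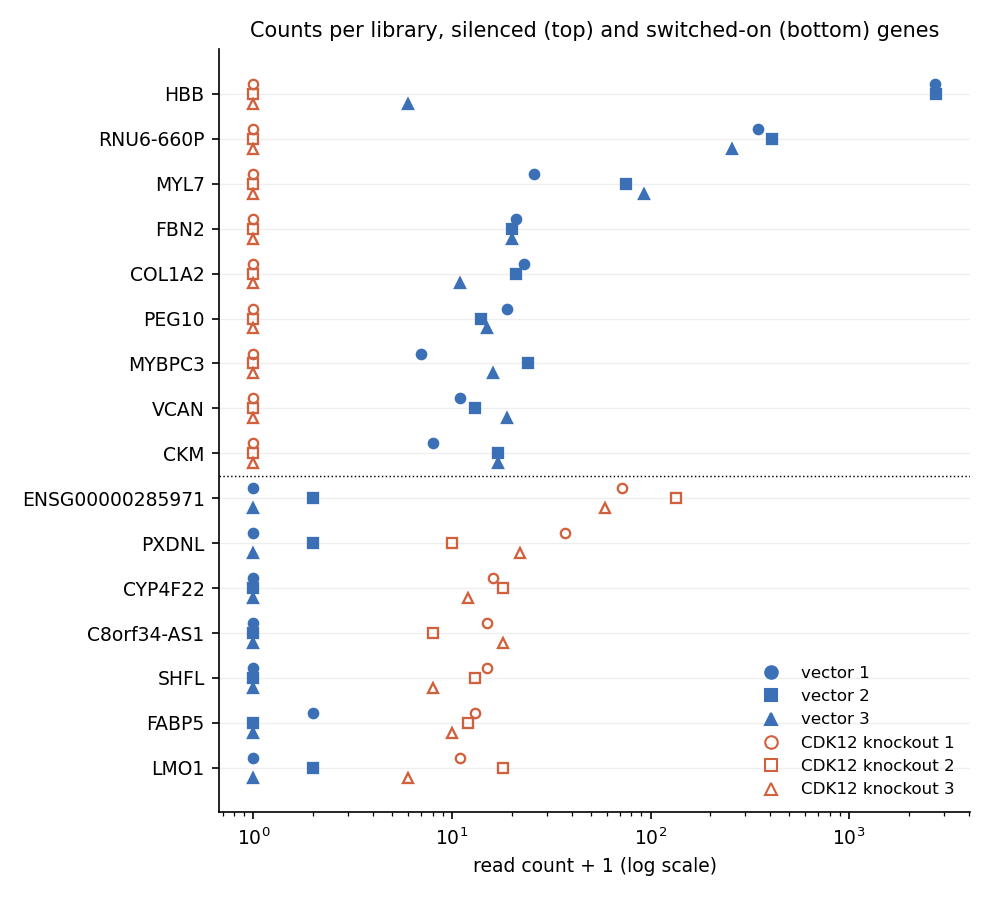
The x axis is the read count plus 1 on a log scale and each row is 1 gene, with silenced genes above the dotted line and switched-on genes below it. Filled blue symbols are the 3 vector libraries and open orange symbols the 3 knockout libraries: FBN2 sits at 19 to 20 reads in every vector library, while HBB drops to 5 reads in vector library 3.

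Of the 7 switched-on genes 4 lay on chromosome 8, spread over it with gaps of 6.05 Mb or more. ENSG00000285971 (chr8:62191088-62249879), a long intergenic RNA, held 0, 1 and 0 vector reads and 71, 133 and 58 knockout reads. Its level in the knockout libraries was 4.91 ± 3.0 CPM (SD, n = 3), 258-fold above the single vector read, with a counting interval (95%) of 45.9 to 10238. PXDNL (chr8:51319578-51809445) held 0, 1 and 0 vector reads and 36, 9 and 21 knockout reads, a ratio of 65.1 (11.3 to 2608).

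C8orf34-AS1 (chr8:68303468-68331491) held 0 reads in each vector library and 14, 7 and 17 in the knockout libraries, at least 12.5-fold higher there against the floor of 3 reads over the vector group. FABP5 (chr8:81280363-81284777) held 1, 0 and 0 vector reads and 12, 11 and 9 knockout reads, a ratio of 31.5. On chromosome 8 as a whole, outside the set, 5 of 519 tested genes rose (0.963%) and 2 fell, against 0.418% of all tested genes rising. Without knockout library 2 the counts were 62 rising and 49 falling of 529, or 11.7% rising against 10.2% of all tested genes.

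CYP4F22 (chr19:15508493-15552317) held 0 reads in each vector library and 15, 17 and 11 in the knockout libraries, at least 14.1-fold higher. LMO1 (chr11:8224304-8268716) held 0, 1 and 0 vector reads and 10, 17 and 5 knockout reads, a ratio of 31.5 (5.27 to 1284). Knockout library 2 held 17 of the 32 reads of LMO1. Without that library LMO1 failed the rule even with the total lowered to 20 reads over 2 libraries. Scaled with TMM factors, LMO1, PXDNL and ENSG00000285971 no longer met the limit of 1 read in the vector group.

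SHFL (chr19:10086122-10093252) held 0 vector reads and 14, 12 and 7 knockout reads in the unstranded count that the rule uses. Its last 915 bases overlap ANGPTL6, an angiopoietin-like gene on the other strand, and reads in that overlap are left out of an unstranded count. Summed over the 2 stranded columns, where such reads are kept, SHFL held 5, 2 and 7 vector reads and 27, 28 and 21 knockout reads. Whether those vector reads came from SHFL or from ANGPTL6 cannot be told apart, since reads of either strand fall in both columns. SHFL was therefore off in the vector group only for reads outside the overlap. FABP5 also left the set by that measure, with 2 vector reads in place of 1, while the other 5 switched-on genes and all 9 silenced genes stayed in it.

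Knockout library 2 was not uniformly high or low over the switched-on genes. Relative to the mean CPM of the other 2 knockout libraries, on the log2 scale, it was at 1.40 for ENSG00000285971 and 1.55 for LMO1 but at -1.30 for PXDNL and -0.81 for C8orf34-AS1. Over all tested genes the median of that value was -0.04. Strand gave no separation of the set: 27.3% (MYBPC3) to 64.4% (VCAN) of the stranded reads of a gene fell in the first stranded column, so reads of a gene and of its antisense partner cannot be told apart.

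**Figure D3:**
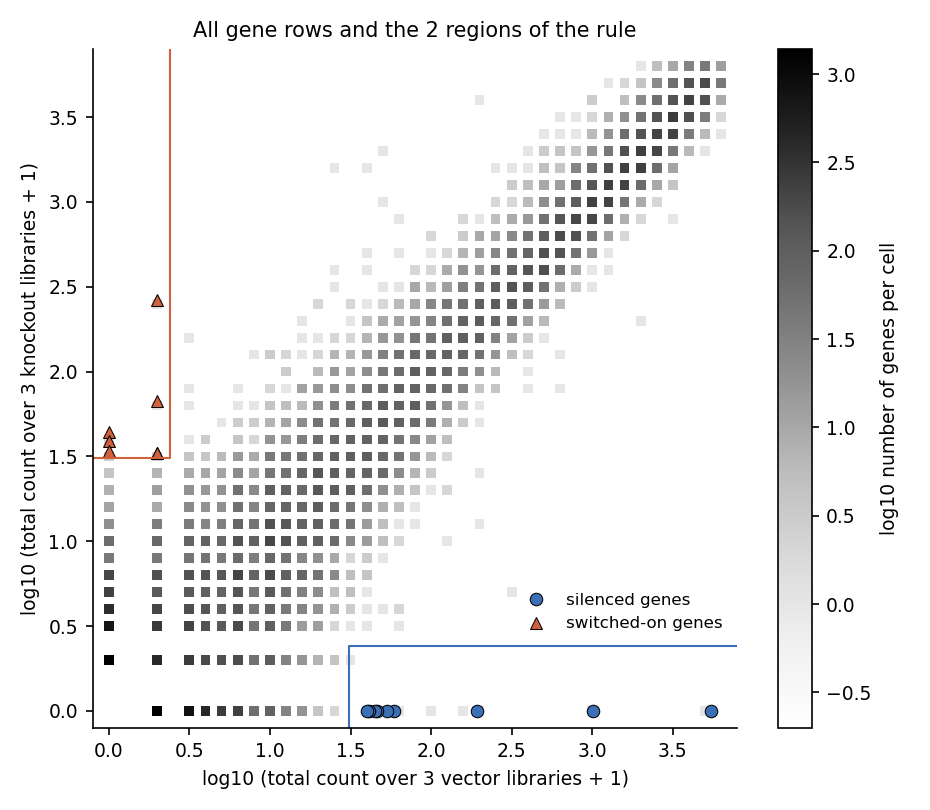
Axes are log10 of the total count plus 1 over the 3 vector libraries (x) and the 3 knockout libraries (y), grey squares are all gene rows binned by 0.1 with darkness for their number, and the coloured lines bound the 2 regions of the rule. The silenced genes (circles) all lie at 0 knockout reads and the switched-on genes (triangles) at 0 or 1 vector reads. Grey squares inside a region are members, genes under 5 reads in some library, or genes just under 30 reads in total that the binning placed inside.

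The rule cut through a range of near misses rather than a gap. Just outside the off limit among genes lost were MYL4 (14, 29 and 20 vector reads, with 2 knockout reads) and LBH (8, 15 and 14, with 2). HSPB7, a heart-enriched small heat shock protein, had 0 knockout reads but 4 in vector library 1. CHGA (143, 3 and 1 vector reads) and LYZ (44, 0 and 2) were high in vector library 1 alone and at 0 in the knockout libraries.

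Just inside the limits were CKM, with 39 reads in all, and HBB, with a minimum of 5. Among genes gained, ENSG00000250696 (24, 45 and 14 knockout reads, with 2 vector reads) and METTL7B (10, 10 and 7, with 0) just missed, while FABP5 and LMO1, with 32 reads each, were just inside. In all, totals of 2 or 3 reads in the off group kept out 5 genes lost and 8 genes gained, with MYL4, LBH and ENSG00000250696 among them.

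Many of the 16 genes were too low for the test across all genes. The edgeR filter on low counts kept 8 of them, 6 silenced and 2 switched on, and 3 of those (RNU6-660P, FBN2 and ENSG00000285971) had an adjusted p under 0.05, where 0.596% of all 15783 tested genes did (0.418% higher and 0.177% lower in the knockout libraries). When knockout library 2 was left out it kept 13, of which 12 were called (HBB was not), where 19.1% of 16339 tested genes were (10.2% higher and 8.88% lower). Nothing is read from these shares, since the same counts chose the genes.

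Genes around the set were not used to choose it. Within 1 Mb of a silenced gene 128 other genes were tested and 0 passed in edgeR's quasi-likelihood test. Within 1 Mb of a switched-on gene 121 were tested, and 4 rose and 0 fell, which is 3.31% against 0.596% of all genes. The median log2 fold change was 0.12 near silenced genes, 0.13 near switched-on genes and 0.0004 over all tested genes. Without knockout library 2 these medians were 0.0026, 0.075 and -0.015. Over both kinds of neighbour 56 of 249 (22.5%) were under an unadjusted p of 0.05, as were 21.7% of all tested genes, and DESeq2 called 19 (7.63%), where it called 6.21% of all its tested genes. The 4 genes sit at 2 loci, so they are not 4 independent cases.

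At the first of these loci, on chromosome 8, ASPH (an aspartate beta-hydroxylase of the endoplasmic reticulum, 476 kb from ENSG00000285971) held 3640, 2853 and 3506 vector reads and 13625, 7866 and 11590 knockout reads. All knockout values lay above all vector values, and ASPH rose by 1.69 ± 0.17 on the log2 scale (SE; edgeR adjusted p = 0.0157). GGH, gamma-glutamyl hydrolase, 765 kb away on the other side, held 822, 646 and 791 vector reads and 1486, 1093 and 1425 knockout reads. Its rise was 0.80 ± 0.12 (edgeR adjusted p = 0.0431).

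NKAIN3, which encodes a protein that interacts with the sodium pump, overlaps ENSG00000285971 by 1289 bases at their starts, on the opposite strand. It held 0, 13 and 6 vector reads and 98, 105 and 77 knockout reads, so its groups did not overlap. Its log2 fold change was 3.84 ± 0.74 (SE), with an edgeR adjusted p of 0.0867, and 3.62 ± 0.50 with an adjusted p of 5.97e-05 when knockout library 2 was left out of edgeR. TTPA, the alpha-tocopherol transfer protein, held 20, 5 and 10 vector reads and 93, 37 and 125 knockout reads (edgeR adjusted p = 0.0877).

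At the second locus, on chromosome 19, PGLYRP2 (a peptidoglycan recognition amidase, 9.54 kb from CYP4F22) held 39, 47 and 40 vector reads and 175, 223 and 133 knockout reads. PGLYRP2 rose by 2.09 ± 0.32 on the log2 scale (SE; edgeR adjusted p = 0.0467). CYP4F8, a P450 paralog 62.9 kb on the other side, held 156, 179 and 166 vector reads and 479, 459 and 452 knockout reads, a rise of 1.46 ± 0.17 (edgeR adjusted p = 0.0234). The paralog CYP4F11 in the same cluster, singled out after its values were seen, held 246, 217 and 228 against 247, 286 and 218 reads, and its groups overlapped. CYP4F genes are close relatives, so reads shared among them may be missing from the counts.

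C8orf34-AS1 shares 770 bases with C8orf34, which went from 0 reads in each vector library to 8, 4 and 4 in the knockout libraries. PREX2, a Rac exchange factor 66.4 kb away, held 0, 3 and 0 vector reads and 12, 10 and 8 knockout reads. Both are too low for the test.

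With knockout library 2 left out, more neighbours passed on both sides. Around silenced genes 12 of 132 rose and 9 fell, 9.09% and 6.82%, against 10.2% and 8.88% of all tested genes. Around switched-on genes 22 of 127 rose and 8 fell, that is 17.3% rising and 6.30% falling. Of these 127, 37 lie near CYP4F22 and 49 near SHFL on chromosome 19, where 15.9% of tested genes outside the set rose. Of the 4 called genes, each lost its call when any single library other than knockout library 2 was left out, with adjusted p of up to 0.175 for ASPH, 0.212 for CYP4F8, 0.263 for GGH and 0.279 for PGLYRP2 over all alternatives.

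**Figure D4:**
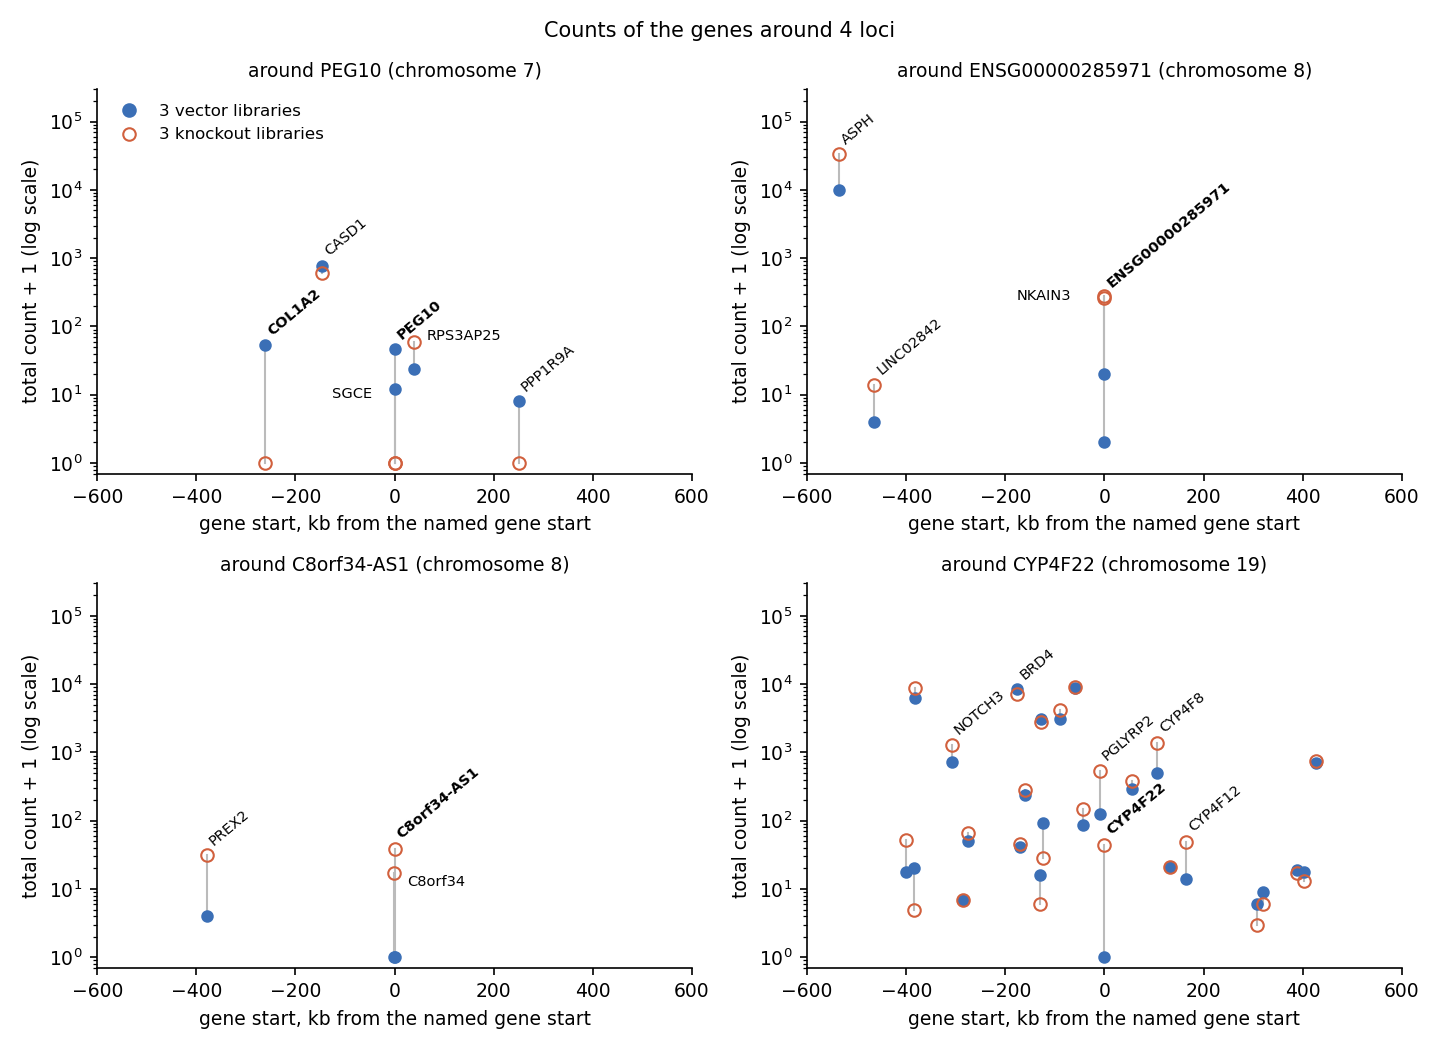
Each panel plots the genes with at least 7 reads within 500 kb of 1 gene of the set (bold), the x axis giving the distance of their starts in kb and the y axis the total count plus 1 over 3 libraries on a log scale, filled for vector and open for knockout. Around PEG10 the knockout totals of COL1A2, SGCE and PPP1R9A are 0 while CASD1 is still counted, and around ENSG00000285971 both NKAIN3 and ASPH lie higher in the knockout libraries.

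COL1A1 and FBN1, relatives of COL1A2 and FBN2, were still counted in every knockout library. COL1A1, the partner chain of COL1A2 in type I collagen, held 381, 371 and 384 vector reads and 447, 440 and 550 knockout reads (log2 0.33, edgeR adjusted p = 0.249). FBN1, the major fibrillin, held 24, 20 and 25 against 26, 16 and 23 reads, or -0.12 on the log2 scale (edgeR adjusted p = 0.806). FBN3, the third fibrillin, held 2, 2 and 1 vector reads and 0, 0 and 7 knockout reads. Of 13 tested collagen genes 1 rose, COL16A1 (a fibril-associated collagen, log2 1.34, edgeR adjusted p = 0.0449), and 0 fell, where 0.418% of all tested genes rose. Short of the threshold, COL2A1, another collagen, held 21, 31 and 20 vector reads and 5, 5 and 5 knockout reads (log2 -2.25, edgeR adjusted p = 0.0742). COL5A1 leaned the other way (log2 0.86, edgeR adjusted p = 0.0696).

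Of 16 tested collagen-processing genes 1 rose and 0 fell, where 0.418% of all tested genes rose. The gene that rose was PCOLCE, an enhancer of procollagen C-proteinase, with 29, 40 and 29 vector reads and 133, 167 and 149 knockout reads (log2 2.20, edgeR adjusted p = 0.0316). Of 12 tested elastic fibre genes 0 passed. Without knockout library 2, the counts were 3 up and 1 down for collagens, 2 up and 2 down for processing and 2 up and 0 down for elastic fibre. Of all tested genes 10.2% rose and 8.88% fell there. The collagen gene that fell was COL2A1 (log2 -2.37, edgeR adjusted p = 0.00529).

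The 14 fibroblast markers summed to 156 to 186 CPM per vector library, against 194 to 325 CPM per knockout library. Among them 2 were at 0 over the vector group and 5 over the knockout group, COL6A3 going from 4, 3 and 2 reads to 0 in each. FN1, fibronectin, had the most reads, with 2897, 2095 and 2584 vector reads and 5709, 2011 and 4782 knockout reads. The sum is thus mostly FN1 and was higher in the knockout libraries. The part of other cell types in their loss was not tested. In bulk RNA fewer cells expressing a gene and less RNA per cell cannot be told apart.

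Neither class that PEG10 belongs to had a call with all libraries. Of 24 tested imprinted genes 0 passed, and of 11 tested genes derived from retroelements 0 passed. Without knockout library 2 they gave 4 up and 4 down, and 1 up and 3 down, against 10.2% up and 8.88% down of all tested genes, with IGF2R (the mannose 6-phosphate receptor, log2 -0.84, edgeR adjusted p = 1.57e-06) and RTL6 (log2 -0.46, edgeR adjusted p = 0.00255) among those that fell. Of 30 tested genes of DNA methylation and polycomb repression, 1 rose and 0 fell, where 0.418% of all tested genes rose. The gene that rose was PHF19, a polycomb-like protein, which went from 71, 72 and 66 vector reads to 194, 195 and 171 knockout reads (log2 1.42, edgeR adjusted p = 0.0371). Without knockout library 2, 1 of 31 rose and 2 fell, against the same 10.2% and 8.88%.

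Some other muscle genes also had few or no knockout reads. In a list of 26 cardiac muscle genes, added after the values were seen and including MYL7, MYBPC3 and CKM, 9 genes, these 3 among them by the rule, had at least 10 reads over the vector group and at most 3 over the knockout group, and 0 had the reverse. How many of all gene rows fell within those limits was not counted, so nothing is read from the 9. One of them, MYL2, held 0, 0 and 15 vector reads and thus rests on vector library 3. ACTC1, cardiac actin, just outside those limits, held 26, 107 and 163 vector reads and 0, 3 and 1 knockout reads. Within them, MYL4, the embryonic and atrial light chain, held 14, 29 and 20 against 0, 2 and 0, and HSPB7 held 4, 41 and 52 against 0 in each.

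Cardiac transcription factors were at a few reads. NKX2-5 held 4, 11 and 7 vector reads and 0, 2 and 0 knockout reads, and HAND2 held 2, 5 and 5 against 0 in each. Not all of the list followed. MYH7, the beta myosin heavy chain, held 10, 9 and 87 vector reads and 27, 169 and 20 knockout reads. TNNI3, cardiac troponin I, was at 0 in the vector libraries with 1, 4 and 1 knockout reads. TNNC1 held 49, 43 and 49 vector reads against 50, 87 and 28 knockout reads. RYR2 held 168, 109 and 150 against 127, 50 and 120, and TTN 77, 50 and 92 against 41, 32 and 63. MYL3, TNNT2, NPPA and CSRP3 were also counted in every library. Leaving out the 3 genes of the set, 8 of 23 were higher in every vector library than in any knockout library and 1 was the opposite. Of the 8 that passed the low-count filter, 2 and 0 were, where 19% and 20.4% of all tested genes were.

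Without the 3 genes of the set, the list summed to 25.3, 38.0 and 52.4 CPM over vector libraries 1 to 3, against 14.3, 35.0 and 14.7 CPM over knockout libraries 1 to 3. Vector library 1 was thus the lowest of its group, as it was for MYL7, MYBPC3 and CKM and, outside the list, for VCAN. Knockout library 2 reached the vector range, mostly through MYH6 (156 reads, against 24 and 23 in the other knockout libraries) and MYH7. Of 8 tested genes outside the set 0 passed with all libraries. Of 11 tested without knockout library 2, 5 fell and 0 rose, where 8.88% of all tested genes fell. Among the 5, HSPB7, MYL4 and ACTN2 passed the low-count filter only through their vector reads, so they could enter only as lower. The list was also added after its values were seen, so nothing is read from the 5. The part of the other list genes in the loss of the 3 genes of the set was not tested.

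**Figure D5:**
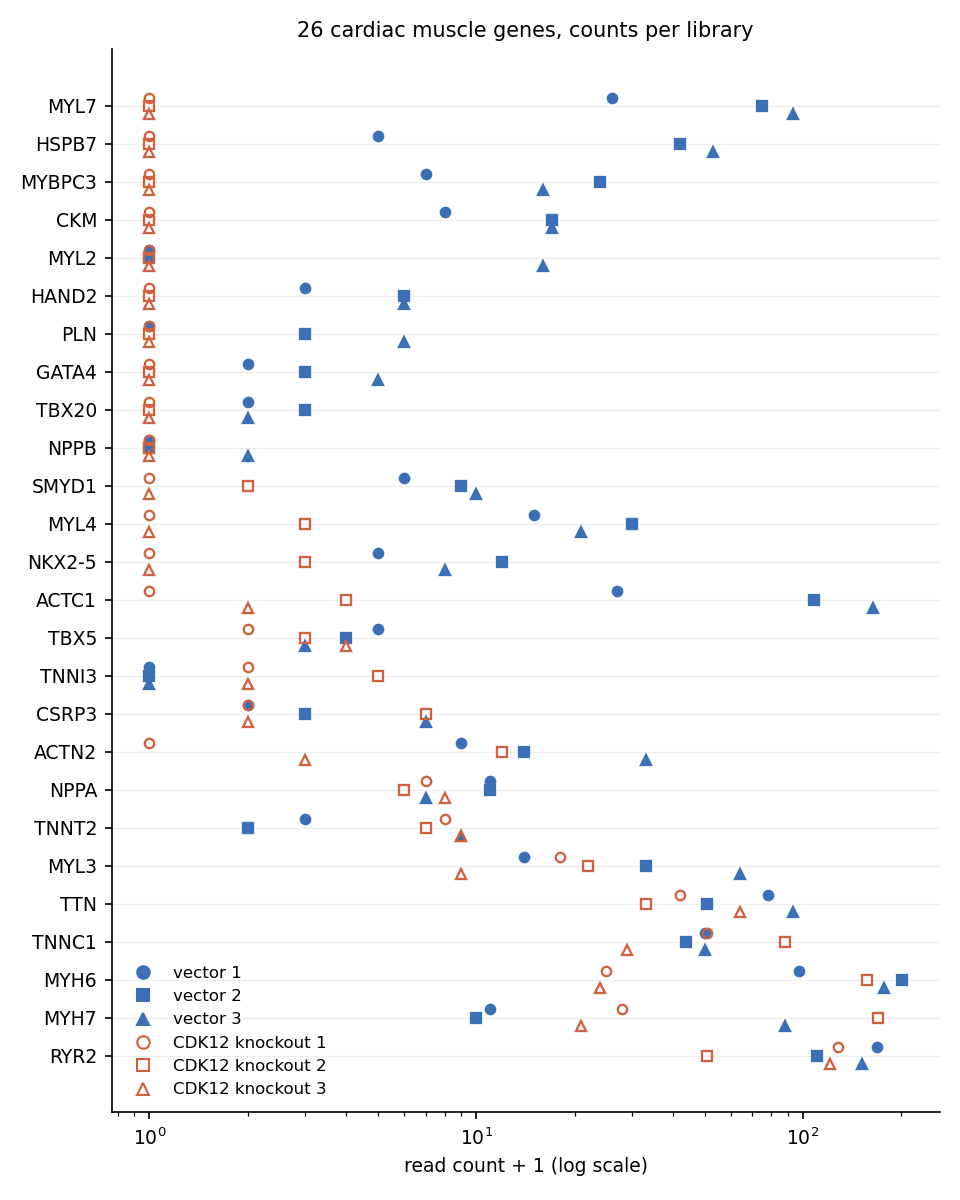
Each row is 1 of 26 cardiac muscle genes and the x axis is the read count plus 1 on a log scale, with filled blue symbols for vector libraries and open orange symbols for knockout libraries. From MYL7 to ACTC1 the knockout libraries lie at 0 to 3 reads. MYH7, TNNI3, TNNC1, RYR2 and TTN are among the genes that do not follow.

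Relatives of FABP5 and LMO1 had various patterns. FABP3, the heart-type fatty acid-binding protein, held 67, 41 and 63 vector reads and 50, 33 and 51 knockout reads (edgeR adjusted p = 0.378), and FABP6, the ileal form, 9, 9 and 10 against 16, 64 and 28 (edgeR adjusted p = 0.199). Of the 10 fatty acid-binding protein genes 4 were at 0 over the vector group and 4 over the knockout group. LMO4, another LIM-only gene, held 1124, 1009 and 1076 vector reads and 1849, 1591 and 1699 knockout reads (log2 0.67, edgeR adjusted p = 0.0582). LMO4 rose when knockout library 2 was left out, with an edgeR adjusted p of 1.47e-05. These relatives were also chosen after values were seen.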

How the data were processed

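Bulk RNA of 3 vector and 3 CDK12 knockout libraries was compared. The deposited files hold raw read counts per gene made by the authors with STAR on GRCh38, per the submitters' processing notes. Versions and the annotation release were not given in the sources read. Each has 1 unstranded column (used here) and 2 stranded columns. The 4 summary rows stayed out. Of 62696 gene rows 62672 were named from a symbol table and 58269 were placed with GENCODE 29.

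Members and lists were chosen with earlier results of these data known. In R 4.3.3, edgeR 4.0.16 (filterByExpr, TMM, robust quasi-likelihood test, Benjamini-Hochberg, 0.05) ran over all genes, with DESeq2 1.42.0 and limma 3.58.1 (voom) as alternatives. On simulated data of 15783 genes it recovered 24.0% of 2-fold and 83.0% of 4-fold changes. The changed genes were drawn only from better counted genes, so these shares do not cover genes as low as most of the set. Floors are 3 reads over a group. Intervals are 95% exact binomial and, like the floors, cover counting error only. CPM and log2 values were computed here. Named were all 16 members, called neighbours, nearest tested genes, genes nearest a threshold, and up to 4 list genes by adjusted p.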

Additional observations from a re-analysis of the deposited data

How the results depend on the processing

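When a library was left out of the on group, the total asked for was lowered to 20 reads over the remaining 2. With that lowered total all 9 silenced genes met the rule when any library was left out (10 to 13 genes in all). They also met it under TMM scaling, the stranded sum and no exclusions. Part of this was fixed in advance. Leaving out a knockout library or lifting the exclusions could not remove a silenced gene. Scaling could not break the off limit of genes with 0 off reads. Of the 7 switched-on genes SHFL was lost by the same lowered total without knockout library 1 and LMO1 without knockout library 2, with 6 to 14 genes in all. Looser and tighter limits changed the numbers by construction. With at most 3 off reads there were 14 silenced and 15 switched-on genes, with at least 10 reads per library and 60 in all 2 and 1, with at least 3 and 15 29 and 29. With 0 off reads 3 genes were switched on, and with TMM scaling 4. The count of clustered genes, 2, became 4, 0 and 8 under the first 3 limits in that order, 0 with a gap of 100 kb, and 2 to 4 when a library was left out.

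Counts of calls depended on the tool and on single libraries, and the cause was not tested. With no low-count filter 363 genes were called instead of 94, 10 neighbours instead of 4, 7 list genes instead of 3, and 15 of 16 tested members instead of 3 of 8. DESeq2 called 980 genes, 19 neighbours, 9 list genes and 8 members, and limma-voom 8 members. Leaving out 1 library gave 4 to 3123 genes, 0 to 51 neighbours, 0 to 25 list genes, and 0 to 12 called of 11 to 13 tested members, the highest each time without knockout library 2. Within 100 kb 2 neighbours were called and within 3 Mb 8. With the replicate block, genes called were 5, neighbours 0, list genes 0 and members 0. The labels do not say whether same-numbered libraries belong together. Deviations of same-numbered libraries correlated at 0.135, 0.194 and 0.084, and each library correlated best with its own number. Whether they shared a batch was not tested. Counts under 30 reads over a group limit what these libraries can show of low genes.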
